A study of Mus musculus with 4 samples.

Results

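The nuclear genes of oxidative phosphorylation were taken by symbol: every gene whose name starts with Ndufa, Ndufb, Ndufc, Ndufs or Ndufv and a digit, with Uqcr, with Cox and a digit from 4 to 8, or with Atp5, apart from 1 name that ends in -ps or Rik. This gave 80 of the 32285 genes measured. They encode 35 subunits of complex I (NADH dehydrogenase; 7 core and 28 accessory), 8 of complex III (cytochrome bc1), 20 genes assigned to complex IV (cytochrome c oxidase) and 17 of complex V (ATP synthase). Ndufa4 and its paralog Ndufa4l2 were counted with complex IV. Of the 20, 3 are the muscle isoforms Cox6a2, Cox7a1 and Cox8b, 5 are other tissue-restricted isoforms (Cox4i2, Cox6b2, Cox7b2, Cox8c and Ndufa4l2), and Cox7a2l is a supercomplex assembly factor. The choice used names alone and no measured value.

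The tissue came from WT, untreated mice: 1 embryo section of stage E13.5, 1 of stage E16.5, and 2 esophagus sections from neonates at P0 (replicates 1 and 2). Each section was 8 µm of fresh-frozen tissue on a Visium slide, whose barcoded spots capture the RNA of all cells above them, so a spot is a mixture of cells. The embryo sections carry esophagus in their titles but span many organs. The labels do not name the animals, so at P0 the replicates are sections. With section as a block, the p-values below measure how differences between regions vary between these sections. A shift shared by all regions of a section is taken out, and part of the variance estimate is borrowed from other genes.

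In oxidative phosphorylation, electrons from NADH and succinate pass through complexes I to IV to oxygen, and the protons pumped on the way drive ATP synthase. Most subunits are encoded in the nucleus, and a small set, including the catalytic cores of complexes I, III and IV, is encoded in mitochondrial DNA. Heart, striated muscle, neurons and brown fat are known for high mitochondrial content. Brown fat carries Ucp1, which lets protons return without making ATP. Several small complex IV subunits have a general isoform and one that replaces it in striated muscle.

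Spots with at least 500 unique molecular identifiers (UMIs, 1 per captured transcript) were kept: 3220 of 3228 at E13.5, 3588 of 3593 at E16.5, 363 of 366 and 264 of 271 at P0. They held 98643829, 105834164, 10260709 and 7356008 UMIs, with medians of 25465 to 29289 per spot. Slide positions shared between sections numbered 2542 for the embryo sections and 24 for the P0 sections; these are grid positions, not shared cells. Of the 80 genes, 78 had at least 20 UMIs in every section. Cox7b2, a testis isoform, had 20 UMIs at E13.5, 45 at E16.5 and 0 at P0, and Cox8c, another testis isoform, had 2, 1 and 0.

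Summed over all members, the nuclear OXPHOS level was 3.59% of UMIs at E13.5 (95% Poisson interval 3.58 to 3.59), 6.46% at E16.5 (6.45 to 6.46), and 2.77% (2.76 to 2.78) and 2.76% (2.75 to 2.77) in the P0 sections. The intervals cover counting error only. E16.5 stood highest and the intervals of the P0 replicates overlapped, with a P0 mean of 2.77% and an SD of 0.00526 over 2 sections. All 4 complexes shared this order. Complex III went from 3651 UMIs per 1000000 UMIs (CPM) at E13.5 to 8659 at E16.5 and 3083 in P0 replicate 1, and complex V from 11899 to 19561 and 8711. In bulk sums of this kind, fewer cells of a type and less RNA per cell cannot be told apart.

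Single genes were compared between stages as log2 ratios of CPM, with a ratio of at least 0.5 log2 counted and no test, because the embryo stages are unreplicated. From E13.5 to E16.5, 64 of 79 measurable members were higher by that margin, against 20.7% of all genes, and 0 were lower, against 22.5%. The median member differed by 0.84 log2 and the median gene by −0.12. Complex III had the highest median of the 4, 1.33, with all 8 members past the limit. Complex I had 30 of 35 past it and complex V 11 of 17, with medians of 0.81 and 0.73. Among the other genes of the pathway, 12 of 13 citric acid cycle genes (median 1.47), 11 of 12 fatty acid oxidation genes (2.44) and 12 of 13 mRNAs of mitochondrial DNA (0.81) were higher at E16.5.

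Against E16.5, P0 was lower for 74 of 79 members (37.3% of all genes lower) and higher for 0 (19.6% of all genes). Against E13.5, P0 was lower for 27 members (42.5% of genes) and higher for 2 (19.6%), and the member median of −0.38 lay close to the median gene at −0.36. The mRNAs encoded in mitochondrial DNA had another order. Their summed level was 25163 CPM at E13.5, 43369 at E16.5 and 54212 and 57157 at P0, and 12 of 13 were higher at P0 than at E13.5, with a median of 1.28. E13.5, E16.5 and P0 sections hold different organs, so stage and tissue cannot be told apart in these sums.

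The spot maps showed where the E16.5 excess lay. The median spot held 3.34% member UMIs at E13.5 and 4.12% at E16.5, while the highest spot reached 8.71% and 19.4% in these embryo sections and 6.53% and 6.86% at P0. At E16.5, 917 spots with at least 1 UMI of Ucp1, the uncoupling protein of brown fat, held 52.7% of all member UMIs at a level of 10.5%. They held 34234264 of the section's 105834164 UMIs over all genes. Without these spots the E16.5 level was 4.52%, 19 members rather than 64 exceeded E13.5 by 0.5 log2 (21.4% of all genes), and their median was 0.32. Ucp1-positive spots were set aside after their values were seen.

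**Figure D1:**
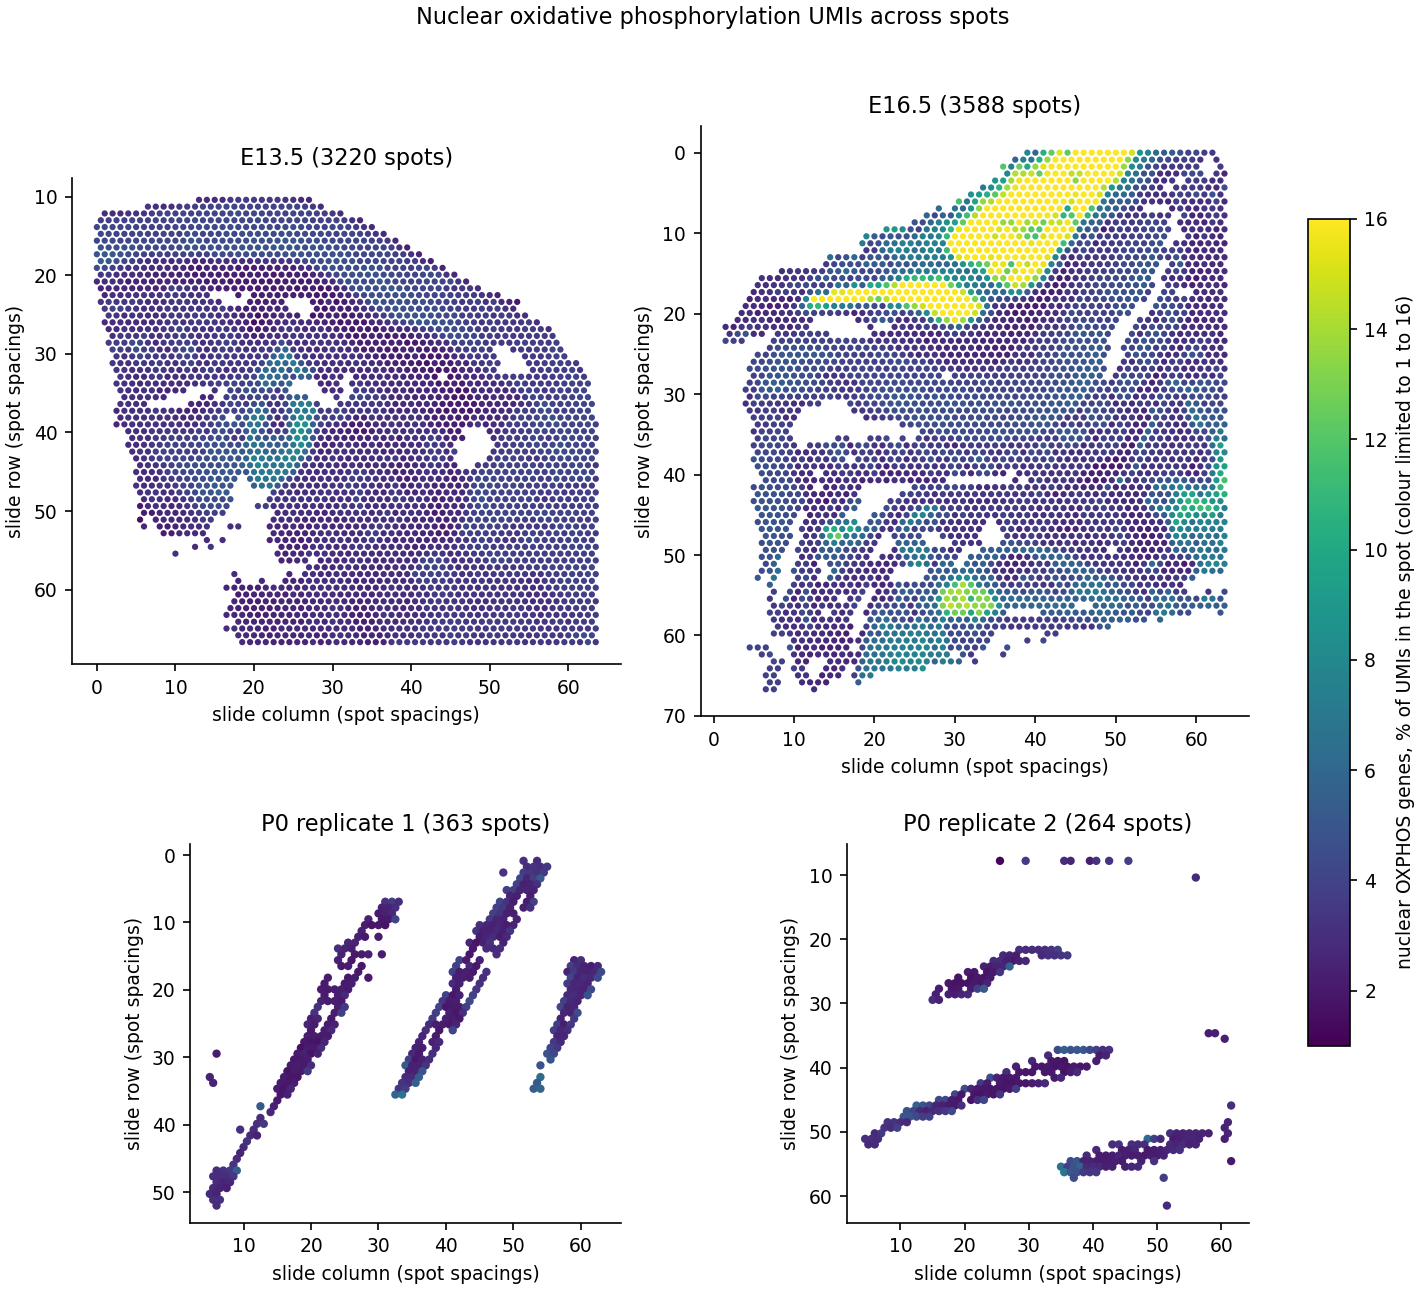
Share of UMIs from the 80 nuclear OXPHOS genes in each spot, at its place on the slide (columns and rows in spot spacings; colour in percent, limited to 1 to 16). At E16.5 a compact area reaches values near the section's maximum of 19.4%, at E13.5 a central group of spots stands above the rest with a maximum of 8.71%, and the P0 sections reach at most 6.86%.

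Binned by Ucp1, the member level climbed with the marker. It was 4.52% of UMIs in the 2671 spots without Ucp1, 6.11% in 463 spots with up to 1 Ucp1 UMI per 10000 UMIs, 10.8% in 140 spots with 1 to 2, 14.2% in 190 spots with 2 to 5, and 17.1% in 120 spots with 5 to 10. The last 4 spots, above 10, held 17.3%. The muscle isoforms did not share 1 pattern over the same bins. Cox7a1 went from 14.1% to 44.6% of its pair and Cox8b from 9.23% to 29.5% between the spots without Ucp1 and those with 5 to 10. Cox6a2 went the other way, from 31.7% to 0.536%. Depth differed between the bins: the median spot had 23925 UMIs without Ucp1, 47212 with 5 to 10 and 69057 above 10. The part of depth was not tested. The bins are spots of 1 section and have no replicate.

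**Figure D2:**
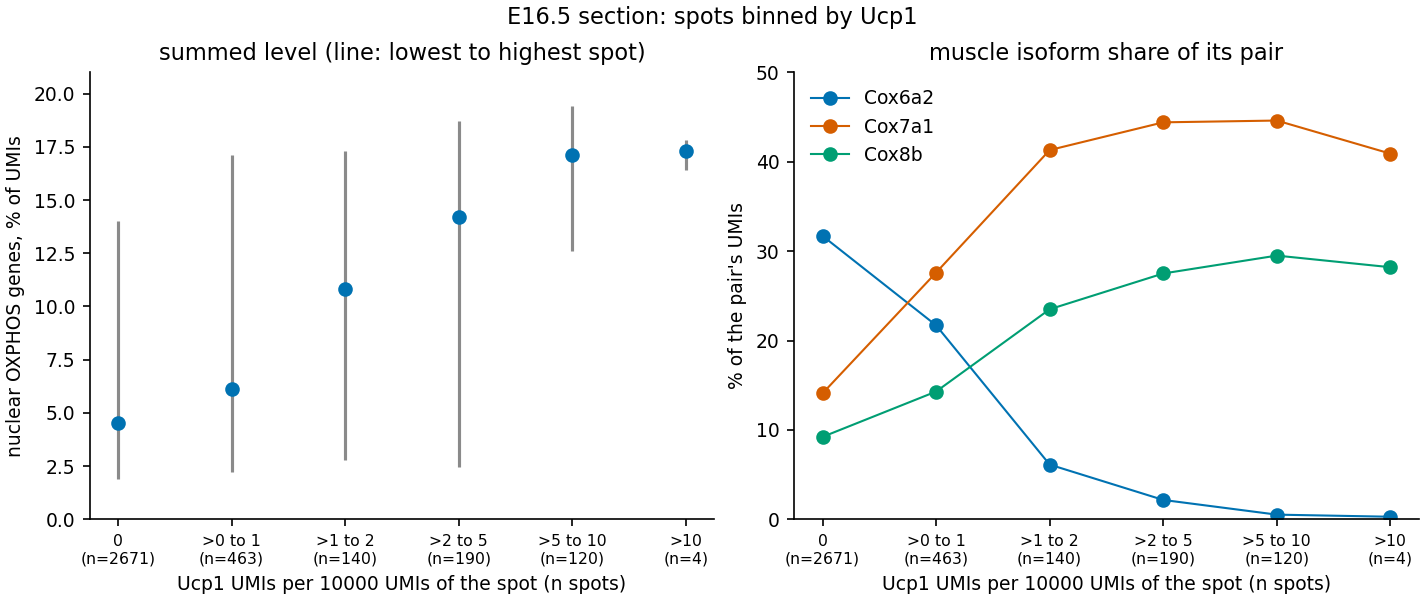
E16.5 spots binned by Ucp1 UMIs per 10000 (number of spots under each bin). Left, member level as percent of UMIs (dot) with the lowest and highest spot (line), from 4.52% to 17.3%; right, UMI share of each muscle isoform in its pair, with Cox7a1 and Cox8b above their Ucp1-free values and Cox6a2 near 0 in the highest bins.

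Tissues of the embryo sections were taken as the top 2% of spots by marker lists (56 to 72 spots each, 47 for E13.5 cartilage) and set against the rest, the spots in the top of no list (2607 and 2880). A tissue was described where at least 3 of its markers had a UMI in at least 50% of its spots. Brown fat and distal lung at E13.5 and liver at E16.5 did not reach this. Heart led at E13.5 with 6.32% of UMIs (6.29 to 6.36), which was 1.78 times the rest, followed by neurons with 4.47%, striated muscle with 3.61% and neural progenitors with 3.57%. Epithelium (3.15%), smooth muscle (3.04%), liver (2.88%) and cartilage (2.19%, 2.15 to 2.23) lay below the rest at 3.54%. Blood genes made up 249208 CPM in the liver spots and 26727 in the rest, and without them in the totals liver turned from −0.30 to 0.08 log2 against the rest. Striated muscle and neural progenitors were within 1.02 times the rest.

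At E16.5 brown fat held 17.1% (17.1 to 17.2), heart 7.26%, striated muscle 6.46%, neurons 4.97% and neural progenitors 3.99%. Smooth muscle (3.38%), cartilage (3.20%), epithelium (3.14%) and distal lung (3.06%) were lowest, and the intervals of cartilage and epithelium overlapped. The rest, which includes Ucp1-positive spots, stood at 6.26%, and at 4.41% without them. Against that second value brown fat was 3.89 times, heart 1.65, striated muscle 1.46, neurons 1.13 and epithelium 0.713 times the rest.

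**Figure D3:**
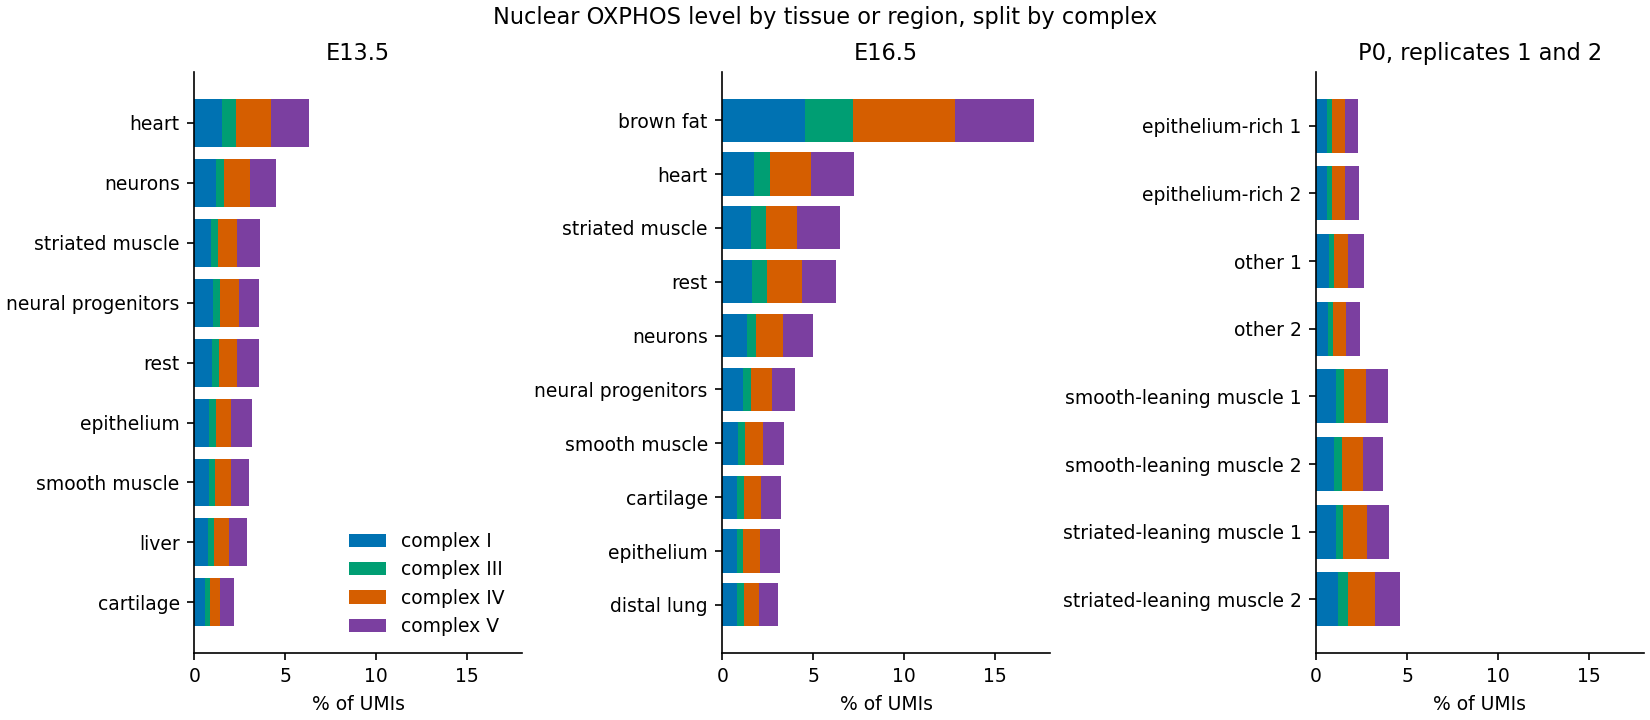
Member level as percent of UMIs (bars, from 0), split by complex, for embryo tissues and for regions of both P0 sections. Brown fat at E16.5 (17.1%) and heart at E13.5 (6.32%) head their sections, and at P0 both muscle regions exceed epithelium-rich spots in both replicates.

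Set side by side between the stages, striated muscle spots differed most: 3.61% at E13.5 and 6.46% at E16.5, a ratio of 1.79 (1.77 to 1.80). Of 78 members, 76 lay above 0, with a median of 0.85 log2 beside −0.48 for all genes. Heart changed by a ratio of 1.15 (1.14 to 1.16) and cartilage by 1.46. Epithelium had a ratio of 0.999 (0.986 to 1.01), an interval that spans no difference, and 37 of 78 members above 0. Its medians were −0.02 log2 for members and −0.04 for all genes. The mitochondrial mRNAs went from 1.30% to 4.20% in striated muscle, from 5.38% to 8.35% in heart and from 1.46% to 1.77% in epithelium. Each stage is 1 section and the intervals cover counting error only, so stage and section cannot be told apart.

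In E13.5 heart spots 63 of 78 members were at least 0.5 log2 above the rest, against 13.1% of all genes. All 8 complex III members, 26 of 35 in complex I and 15 of 17 in complex V were among them. The muscle isoforms stood furthest out at 4.51 (Cox8b), 3.86 (Cox7a1) and 3.71 log2 (Cox6a2). Of the general subunits, chosen here after their values were seen, Uqcr10, a small complex III subunit, was 1.42 higher and Atp5b, the catalytic beta subunit of ATP synthase, 1.34. All 13 citric acid cycle genes, all 4 complex II genes and all 13 mitochondrial mRNAs were past the limit in the same spots. Of 39 assembly factors 5 were higher and 5 lower. At E16.5, 7 of 79 members were past the limit in heart, a share close to the 6.83% of all genes. They were led by Cox6a2 at 2.36, the c-subunit gene Atp5g1 at 1.36 and Atp5j, a coupling factor of ATP synthase, at 1.02. Blood genes made up 173800 CPM in these E16.5 heart spots. Leaving them out of the totals gave a summed heart difference of 0.41 log2 in place of 0.21. The E16.5 rest also holds Ucp1-positive spots, and against a rest without them the difference was 0.72, so the counts of the 2 stages have unlike backgrounds.

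Neurons at E13.5 had 11 of 78 members higher (17.0% of genes), among them Cox6a1 at 0.78 and Cox5a at 0.71, and the 6 measured tissue-restricted isoforms were all lower. At E16.5, 21 of 79 were lower than the rest in neurons (33.0%). Neural progenitors had 6 lower members at E13.5 (34.1%) and 48 at E16.5 (24.3%). In striated muscle 2 of 78 members were higher by 0.5 log2 at E13.5, against 2045 of 16847 genes: Cox8b (4.10) and Cox6a2 (2.86). At E16.5 the higher members were Cox6a2 (2.29), Atp5g1 (0.88), Atp5g3 (0.83) and Atp5j (0.69). Striated muscle had 4 lower at E13.5 (39.3%) and 7 at E16.5 (52.2%). Each of these shares lay under its background, apart from that of E16.5 neural progenitors. The E16.5 rest holds Ucp1-positive spots. Against a rest without them the summed level moved from −0.65 to −0.14 log2 in neural progenitors and from −0.33 to 0.17 in neurons.

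Epithelium had 10 members lower at E13.5 (32.7% of genes) and 71 of 79 at E16.5 (29.6%). Smooth muscle had 8 (33.9%) and 68 (29.3%), and cartilage 56 (45.1%) and 70 (39.2%). Liver had 21 lower at E13.5 (62.6%), with blood genes in the totals, and distal lung 71 at E16.5 (34.6%). At E13.5 the share in cartilage alone exceeded its background, and at E16.5 all 4 shares did, against a rest that holds Ucp1-positive spots.

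Nearly the whole module stood high in brown fat, and 63 of 78 members did in E13.5 heart. At E16.5, 72 of 79 members were at least 0.5 log2 above the rest, against 10.9% of all genes, including all 35 of complex I and all 8 of complex III. Medians were 1.48 for complex I, 1.74 for complex III and 1.24 for complex V. Cox8b led at 2.56 (2435 CPM), followed by Cox7a1 at 2.31 (2855 CPM) and, chosen after their values were seen, Uqcrb at 1.89 and the Rieske protein gene Uqcrfs1 at 1.84. The citric acid cycle genes were higher for 13 of 13 (median 1.92), fatty acid oxidation genes for 11 of 12 (2.34), assembly factors for 32 of 39 (0.89), and cytochrome c (Cycs) by 1.99. The mRNAs of mitochondrial DNA were not: 1 was higher and 4 were lower, with a median of −0.25.

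Only 5 members were lower in brown fat by 0.5 log2, against 63.1% of all genes. They were Cox6a2 (−3.50), Atp5g1 (−1.91), Ndufa4l2 (−1.19), Atp5g3 (−0.70) and Cox4i2 (−0.54). Atp5g1, Atp5g2 and Atp5g3 encode the same c subunit, the proton-carrying ring of ATP synthase, with different import sequences. Their levels were 131, 656 and 396 CPM in brown fat and 492, 459 and 644 in the rest, so Atp5g2 alone was higher, by 0.52. Atp5g2 made up 55.5% of c-subunit UMIs in brown fat (Clopper-Pearson 54.1 to 56.9), 28.8% in the rest, 18.4% in heart and 16.1% in neurons. Atp5g1 made up 11.1% (10.2 to 12.0) in brown fat and 41.4% in heart. Atp5j, at 513 CPM against 672, was the other complex V gene below the rest. Brown fat of rodents is known for little ATP synthase relative to its respiratory chain.

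The upstream bases of Atp5g2 are given because it was the c-subunit gene that stood higher in brown fat. They are the 250 bases before the gene's start in RefSeq (GRCm38.p6), 5′ to 3′ along the gene's strand, and capitals mark a motif match on either strand.
Atp5g2, chr15:102671048-102671297, minus strand: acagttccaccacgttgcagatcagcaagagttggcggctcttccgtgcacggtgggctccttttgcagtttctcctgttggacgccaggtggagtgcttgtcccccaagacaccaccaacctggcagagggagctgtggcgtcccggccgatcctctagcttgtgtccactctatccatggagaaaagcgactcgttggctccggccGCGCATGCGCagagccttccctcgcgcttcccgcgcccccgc
The capitals are the NRF1 core GCGCATGCG, found on both strands with an overlap. A match describes the letters and is not a binding site, and a missing match says only that these letters are not in the window.

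RefSeq promoter windows, 250 bases before to 50 after a start, matched 64 members (69 windows). The NRF1 core GCGCATGCG was in 11.6% of member windows and 1.75% of 32851 windows of all genes, and its shorter form GCGCATG, which the core contains, in 17.4% and 3.91%. The GABPA core CCGGAAGT was in 5 member windows (7.25% against 3.89%) and the ESRRA core TCAAGGTCA in 1 (1.45% against 0.423%). Member windows had a median G and C content of 57.0%, and all windows 52.7%. The 30267 windows within 15 G and C bases of any member window held the NRF1 core in 1.90%, its shorter form in 4.22% and the GABPA core in 4.20%. These are most of the 32851 windows, a loose match, so the part of G and C content was not tested. The E-box CAGCTG was in 8.70% against 16.3%. The MEF2 cores TATTTATAG and TATTTTTAG were in 0 of the 69 windows, and in 0.451% and 0.517% of all windows. Both strands were searched. NRF1 and GABPA are factors known for driving nuclear respiratory genes.

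The muscle isoforms of complex IV were set against their general partners as a share of the pair's UMIs: Cox6a2 with Cox6a1, Cox7a1 with Cox7a2, and Cox8b with Cox8a. UMIs count transcripts and were not scaled by length, so the shares are compared between tissues. Whole sections gave Cox6a2 7.49% at E13.5, 19.1% at E16.5, and 3.60% and 12.5% at P0. Cox7a1 stood at 2.33%, 29.8%, 2.59% and 3.29%, and Cox8b at 0.681%, 18.5%, 0.703% and 3.74%. All 3 were highest at E16.5, and P0 replicate 2 exceeded replicate 1 for Cox6a2 and Cox8b beyond their counting intervals.

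The 3 isoforms differed in where they were used. Cox6a2 was highest in striated tissue: 68.7% of its pair (67.4 to 70.1) in E16.5 striated muscle, 57.9% in E16.5 heart, 37.3% in both at E13.5 and 0.550% (0.445 to 0.671) in brown fat. Cox7a1 was highest in brown fat at 44.2% (43.6 to 44.8). The E16.5 rest, which holds Ucp1-positive spots, was at 29.5%, above heart at 22.1% (21.2 to 23.0), cartilage at 19.3% (15.5 to 23.5) and striated muscle at 17.1%, and the interval of cartilage held both other values. At E13.5 it was 13.9% in heart and 0.993% (0.557 to 1.63) in striated muscle, so heart and striated muscle matched for Cox6a2 but not for Cox7a1 at that stage. Cox8b was 29.6% in brown fat, 24.9% in E16.5 striated muscle and 16.9% in E16.5 heart, against 6.51% and 5.25% in striated muscle and heart at E13.5, whose intervals overlap.

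**Figure D4:**
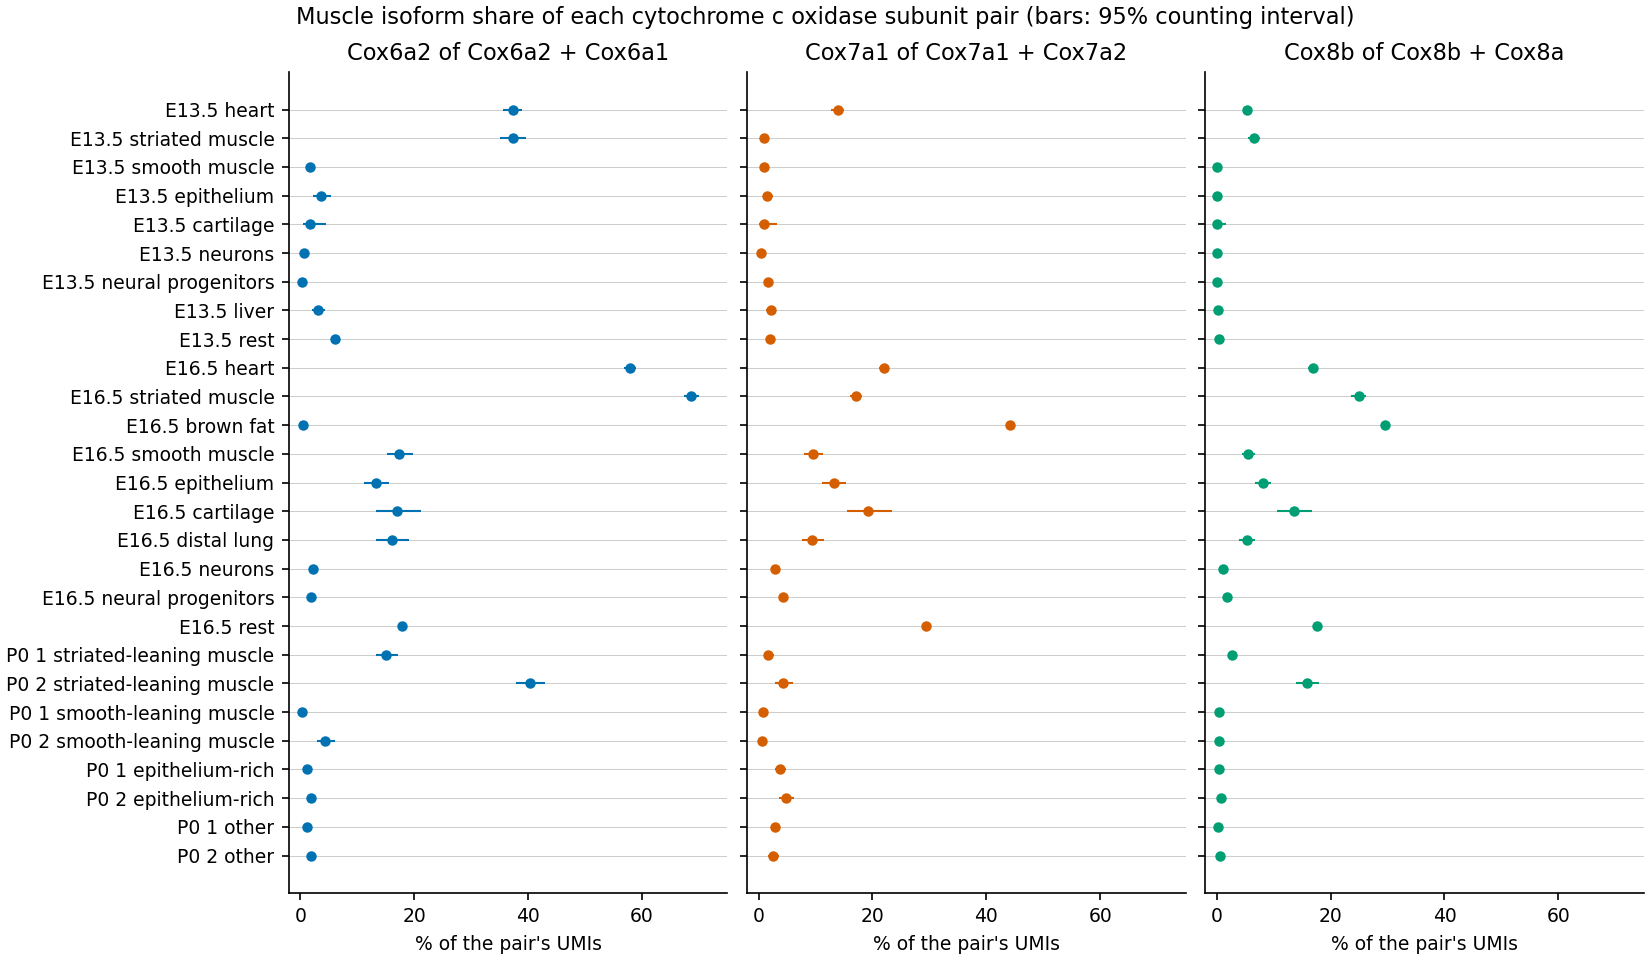
Share of a pair's UMIs held by the muscle isoform, in percent (dots, with 95% Clopper-Pearson intervals), for embryo tissues and P0 regions (replicates 1 and 2). Cox6a2 peaks in E16.5 striated muscle (68.7%) and is near 0 in brown fat, whereas Cox7a1 and Cox8b peak in brown fat.

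E16.5 neurons held 2.15% Cox6a2, 2.87% Cox7a1 and 1.15% Cox8b. In epithelium, smooth muscle, cartilage and distal lung of the same section the shares were higher, from 13.3% to 17.4% for Cox6a2 and from 9.44% to 19.3% for Cox7a1. Cox8b was at 5.24% in distal lung, 5.57% in smooth muscle and 8.07% in epithelium, and highest of the 4 in cartilage (95% interval 10.6% to 16.8%). Striated muscle markers were also higher than in neurons: their summed level was 4552 CPM in epithelium, 3891 in smooth muscle, 4174 in cartilage and 1455 in distal lung, but 877 in neurons, and 74375 in striated muscle itself. Among these 4 tissues the order was not shared, since distal lung had the fewest striated markers and a Cox6a2 share of 16.1%, beside 13.3% in epithelium. Brown fat markers were not set beside the shares of these 4 tissues, though Cox7a1 and Cox8b shares were highest in brown fat. The part of striated muscle or brown fat signal in the shares was not tested.

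The upstream bases of Cox7a1 and Cox8b, whose pair shares were highest in brown fat, and of the general Cox6a1 are given for comparison (RefSeq, GRCm38.p6, 5′ to 3′ along the gene's strand, 250 bases before the start, capitals for a motif match).
Cox7a1, chr7:30183921-30184170, plus strand: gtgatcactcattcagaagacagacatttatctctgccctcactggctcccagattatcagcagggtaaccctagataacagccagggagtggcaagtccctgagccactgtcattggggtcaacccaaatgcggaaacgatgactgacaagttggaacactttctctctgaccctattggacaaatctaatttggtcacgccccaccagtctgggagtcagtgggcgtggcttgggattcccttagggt
Cox8b, chr7:140900447-140900696, minus strand: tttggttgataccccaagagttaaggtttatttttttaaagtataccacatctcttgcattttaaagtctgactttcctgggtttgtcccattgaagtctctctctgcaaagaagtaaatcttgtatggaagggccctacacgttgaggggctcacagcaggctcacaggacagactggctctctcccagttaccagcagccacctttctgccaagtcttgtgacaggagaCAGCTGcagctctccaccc
Cox6a1, chr5:115348959-115349208, minus strand: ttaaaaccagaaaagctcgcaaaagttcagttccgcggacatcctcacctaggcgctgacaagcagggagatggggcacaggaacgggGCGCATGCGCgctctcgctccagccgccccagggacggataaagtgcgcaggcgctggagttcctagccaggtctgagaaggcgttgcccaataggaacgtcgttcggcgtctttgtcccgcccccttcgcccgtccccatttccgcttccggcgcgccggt
The capitals in Cox8b are the E-box CAGCTG and those in Cox6a1 the NRF1 core GCGCATGCG on both strands. None of the searched motifs lay in the Cox7a1 window.

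The other restricted isoforms had other tissues. Ndufa4l2, a hypoxia-responsive paralog of Ndufa4, was at 148 CPM in E13.5 cartilage and 758 in E16.5 cartilage, 2.77 and 3.17 log2 above the rest, and at 369.7 CPM in E16.5 epithelium and 182 in distal lung. It formed 48.1% of its pair with Ndufa4 in E16.5 cartilage. Cox4i2, the lung and hypoxia isoform of subunit 4, was at 33.5 CPM and 96.9 CPM in cartilage at the 2 stages and at 46.3 CPM in distal lung, against 11.9 in the E16.5 rest. Cox6b2, a testis isoform, was at 78.9 CPM in E13.5 liver and 73.0 in E13.5 smooth muscle, 1.38 and 1.27 log2 above the rest, and had its E16.5 maximum in brown fat, 1.13 above the rest.

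For P0, spots were split into epithelium-rich (top 25% by epithelial markers, 91 and 66 spots in replicates 1 and 2), striated-leaning muscle (45 and 33) and smooth-leaning muscle (46 and 33), and UMIs were summed per section and region. The member level was 2.33% and 2.34% in epithelium-rich spots, 3.99% and 4.64% in striated-leaning, and 3.94% and 3.69% in smooth-leaning muscle. Both muscle regions stood above epithelium in both sections. Fibroblast markers went with them, at 3068 and 2913 CPM in epithelium, 14706 and 10109 in striated-leaning and 14249 and 15735 in smooth-leaning spots, and their part was not tested. Between the muscle regions the counting intervals overlapped in replicate 1 (3.95 to 4.03 and 3.90 to 3.98), and striated-leaning spots were higher in replicate 2. The replicates were not equal in their muscle. Striated markers summed to 9013 CPM in the striated-leaning spots of replicate 1 and 24364 of replicate 2, and smooth muscle markers to 12306 and 5737 in the same spots. Blood genes were at 2206 and 3652 CPM there and at 205 and 162 in epithelium, and their part in the differences was not tested.

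Striated-leaning muscle against epithelium, in edgeR's quasi-likelihood test over 12332 genes with Benjamini-Hochberg adjustment, had 62 of 78 tested members higher and 0 lower, against 24.0% of all genes higher. By complex, 30 of 35 (I), 5 of 8 (III), 14 of 18 (IV) and 13 of 17 (V) rose, and the median over members was 0.68 log2 while the median gene was at 0.00. Cox6a2, at 6.74 and 10.4 CPM in epithelium and 202 and 710.4 in striated-leaning spots, rose by 5.37 log2 (SE 0.27, adjusted p = 4.04e-11). Cox8b, at 2.16 and 5.91 CPM against 43.4 and 252, rose by 4.86 (SE 0.32, adjusted p = 6.02e-10). In both genes the regions did not overlap, and replicate 2, richer in striated markers, was the higher. Cox7a1, at 15.1 and 18.8 CPM against 13.8 and 38.3, overlapped and did not pass (0.33, SE 0.34, adjusted p = 0.450).

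The general partners rose less in the same test: Cox6a1 by 0.72 (adjusted p = 1.83e-04), Cox7a2 by 0.89 (2.79e-05) and Cox8a by 0.83 (4.09e-05). The c-subunit genes rose together, Atp5g1 by 0.90, Atp5g2 by 0.68 and Atp5g3 by 0.78. Other subunits with the largest changes were Ndufa12 and Ndufa5 in complex I (1.16 each), Uqcrq (0.98) and Uqcrfs1 (0.93) in complex III, Cox5a (1.09) and Cox5b (0.77) in complex IV, and Atp5mpl and Atp5k (0.92) in complex V. Atp5mpl was at 323 and 301 CPM in epithelium and 675 and 794 in striated-leaning spots. Ndufa12 was at 131 and 129.6 CPM in epithelium and 337 and 356 in striated-leaning spots. Ndufa4 (0.11, adjusted p = 0.613), Ndufa4l2 (−0.08, 0.832) and the supercomplex factor Cox7a2l (0.11, 0.561) did not pass. Of the other restricted isoforms, Cox6b2 rose by 0.82 (adjusted p = 0.00239 in edgeR) and Cox4i2 by 1.93 (0.0311), the latter on 7 and 5 UMIs against 2 and 7.

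Smooth-leaning muscle against epithelium had 36 of 78 members higher (23.1% of genes) and 2 lower (23.7%) in the same edgeR fit, with a member median of 0.37. Complexes I, III, IV and V gave 18, 4, 7 and 7 of the higher ones. Ndufa1 rose by 1.08, Ndufa13 by 1.02, Atp5mpl by 0.94, Uqcrq by 0.80 and Atp5k by 0.73, and among the general isoforms Cox8a by 0.80, Cox7a2 by 0.73 and Cox6a1 by 0.59. Cox4i2, at 2 and 7 UMIs in epithelium and 13 and 7 in smooth-leaning spots, rose by 2.75 (SE 0.62, adjusted p = 0.00128), on few counts. Cox6b2 was at 26.4 and 20.8 CPM in epithelium and 76.5 and 69.6 in smooth-leaning muscle, a rise of 1.28 (SE 0.19, adjusted p = 1.72e-05). The 2 lower members were Ndufa10, an accessory subunit of complex I, and Cox7a1. Ndufa10 fell by 0.52 (SE 0.15, adjusted p = 0.00730) from 202 and 186 CPM to 179 and 165. Cox7a1 was at 56 and 54 UMIs in epithelium and 6 and 3 in smooth-leaning spots and fell by 1.96 (SE 0.51, adjusted p = 0.00410). The Ndufa10 call was lost with DESeq2 and with library sizes alone, and the Cox7a1 call with regions of the top 15% of spots (−0.96, adjusted p = 0.135). Scaling matters here: by library size alone the median of all genes moved to 0.33 and 63 members were called higher and 1 lower.

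Between the muscle regions only 7 of 78 members passed in edgeR's quasi-likelihood test, all higher in striated-leaning spots, against 2.67% of all genes. Without the section as a block the count was 3. The muscle isoforms led: Cox6a2 (4.42, SE 0.31, adjusted p = 1.68e-08), Cox8b (4.38, SE 0.40, 8.40e-07) and Cox7a1 (2.29, SE 0.55, 0.0193). Cox6a2 was at 3.10 and 45.4 CPM in smooth-leaning spots (3 and 32 UMIs), Cox8b at 7.24 and 5.68 and Cox7a1 at 6.21 and 4.26, each below both striated-leaning values. With the top 15% of spots the differences were 2.54 for Cox6a2 and 2.44 for Cox8b, both called, and 1.48 for Cox7a1 (adjusted p = 0.201), which DESeq2 (adjusted p = 0.0525) and the fit without the block (0.0561) also left uncalled.

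The general members that differed between the muscle regions were Cox5a (1.08, SE 0.18, adjusted p = 8.59e-04 in edgeR), the Rieske gene Uqcrfs1 (0.83, 0.0129), Ndufc2, an accessory subunit of complex I (0.63, 0.0274), and Cox6b1 (0.59, 0.0240). Cox5a was at 326 and 518 CPM in striated-leaning and 207 and 212 in smooth-leaning muscle, with 152 and 181 in epithelium, and showed no rise in smooth-leaning muscle over epithelium (0.00, adjusted p = 0.986). The partners Cox6a1 (0.13), Cox7a2 (0.17) and Cox8a (0.03) did not pass. The median member difference was 0.26.

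**Figure D5:**
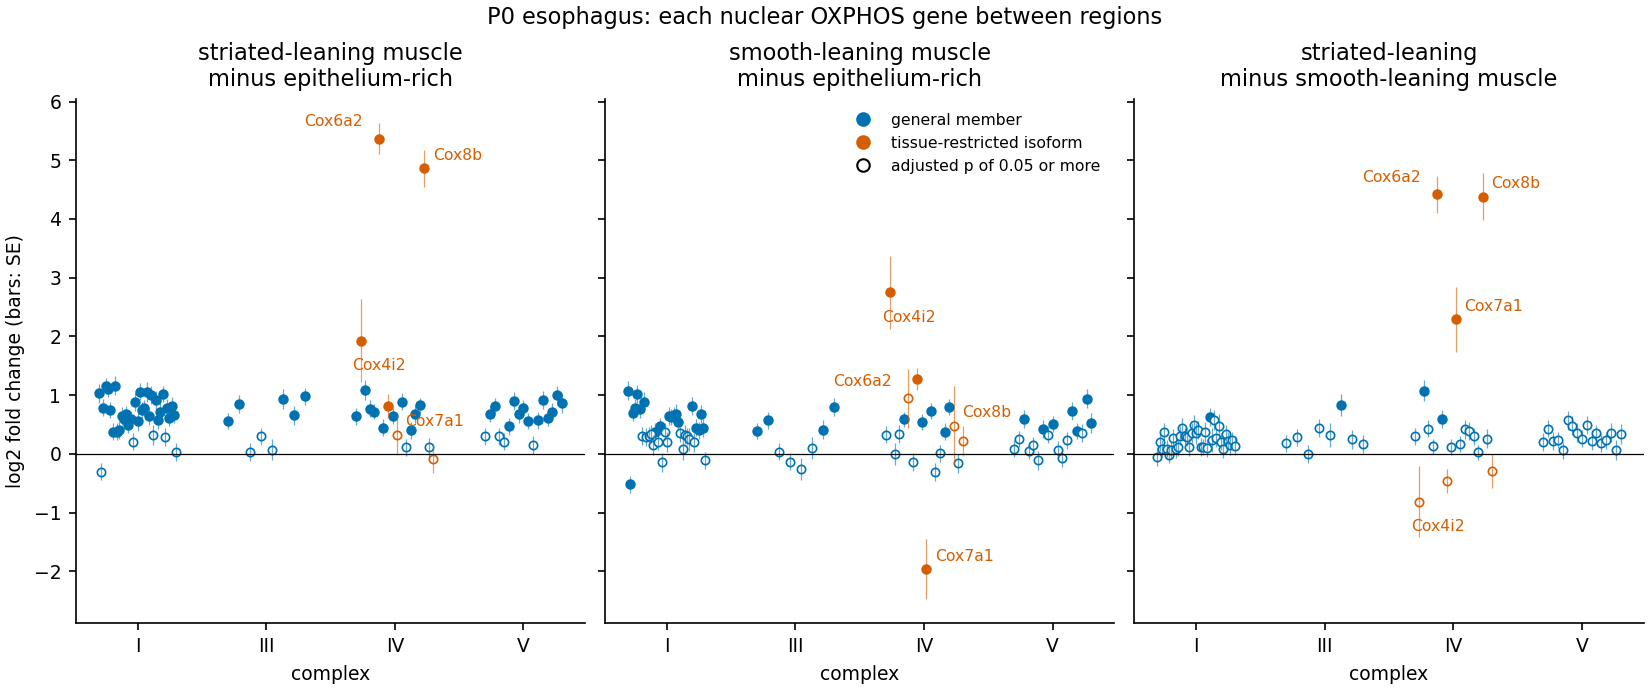
P0 log2 fold change of each tested member (dots, SE bars) by complex, in 3 contrasts between regions, from edgeR; filled dots have an adjusted p under 0.05. General members lie mostly between 0 and 1.2 log2 in muscle against epithelium, and Cox6a2, Cox8b and Cox7a1 stand apart between the muscle regions (4.42, 4.38 and 2.29).

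As shares of their pairs at P0, Cox6a2 held 15.1% and 40.3% in striated-leaning spots (mean 27.7%, SD 17.8, n = 2), 0.272% and 4.37% in smooth-leaning spots and 1.20% and 1.83% in epithelium. Cox8b held 2.62% and 15.8% in striated-leaning spots, and Cox7a1 1.66% and 4.29%, beside 3.73% and 4.83% in epithelium of the same sections. The Cox7a1 share was thus below that of epithelium in replicate 1 (0.913 to 2.78 against 2.83 to 4.81) and within the epithelial interval in replicate 2. It was the lowest of the 3 isoform shares in striated-leaning spots of both sections.

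Other genes of the pathway followed the members in part. Of all 12332 genes tested, 2963 were higher and 2914 lower in striated-leaning muscle against epithelium, and 2845 and 2917 in smooth-leaning muscle. Between the muscle regions 2.67% were higher. Cycs, which carries electrons from complex III to IV, rose by 1.71 (adjusted p = 1.45e-07) in striated-leaning and 0.88 (6.20e-04) in smooth-leaning muscle against epithelium, and by 0.83 (0.00900) between them, in edgeR's test. Citric acid cycle genes had 9 higher and 2 lower of 13 in striated-leaning muscle, with Mdh2 up by 0.77 and Suclg2 down (−1.01), and 4 and 2 in smooth-leaning. Complex II had 3 of 4 and 1 of 4 higher, led by Sdhd (1.13 and 0.66). The mRNAs of mitochondrial DNA were split, 4 higher and 2 lower of 13 in striated-leaning and 3 and 4 in smooth-leaning muscle, with mt-Co1 at −0.65 and −0.77. Assembly factors had 5 higher and 2 lower of 38, then 2 and 3, each under the share over all genes. Fatty acid oxidation went against the members: 9 of 12 were lower in both muscle regions, Hadh at −1.09 and −1.17, and 2 and 0 were higher.

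Of 11 tested regulators of mitochondrial biogenesis, 0 were higher and 2 lower in both contrasts by edgeR: Esrra (−0.98, adjusted p = 3.64e-04, and −0.88, 0.00102) and Yy1 (−0.86, 2.70e-04, and −0.58, 0.00543). A count of 2 of 11 did not exceed the share of all genes lower, 2914 of 12332 in striated-leaning and 23.7% in smooth-leaning muscle. Esrra encodes a nuclear receptor that activates oxidative genes. Glycolysis had 9 higher and 1 lower of 14 in striated-leaning and 5 and 1 in smooth-leaning muscle, and 5 higher between the muscle regions. Pfkm, the muscle phosphofructokinase, rose by 2.20 in striated-leaning muscle against epithelium. Hypoxia targets had 3 higher and 2 lower of 7, then 4 and 2, with Higd1a up by 1.26 and 1.85 and Slc2a1 at −1.64 and −2.22.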

How the data were processed

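The deposited files are raw counts (UMIs per gene and spot) from Space Ranger 2.0.0, per the file headers, against mm10, per the submitters' processing notes; the authors deposited them without normalization. Marker scores, regions, CPM, ratios and shares were computed here, over spots with at least 500 UMIs and without doublet calling. A spot's score is the mean over markers of log(1 + UMIs per 10000); muscle-rich P0 spots were the top 25% by both muscle lists, split at the section median of striated minus smooth score. Log2 ratios used a pseudocount of 0.5 CPM and genes with at least 20 UMIs.

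P0 sums (4 regions in each of 2 sections) were fitted with edgeR 4.0.16 in R 4.3.3 (TMM, filterByExpr, quasi-likelihood F test, section as block, adjusted p under 0.05), with selecting markers left out. A gene's variance rested on 15.2 prior and 3 residual degrees of freedom. The fit was tested on simulated data. DESeq2 1.42.0 was an alternative. Python 3.11.15 with scipy 1.17.1 gave intervals. Named by rule were isoform pairs, c-subunit genes and, per P0 contrast and complex, the 2 other members with the largest change past the threshold that went the same way in both sections; for pathway lists, those with the smallest adjusted p. Members, lists and alternatives were chosen with earlier results of these data known. The alternatives on library size without TMM and on Ucp1 were added after seeing the data.

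RefSeq positions matched 79 members. Sequences from mouse chromosome 18 were not used here. Tissue images were not used here.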

Additional observations from a re-analysis of the deposited data

Results flagged for a closer look

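The difference between striated-leaning and smooth-leaning muscle at P0, itself tested in edgeR, passed for 7 members: Cox6a2 (4.42 log2), Cox8b (4.38), Cox7a1 (2.29), Cox5a (1.08), Uqcrfs1 (0.83), Ndufc2 (0.63) and Cox6b1 (0.59). All 7 were higher in striated-leaning spots in both sections.

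Summed member levels of neurons were 0.33 log2 above the rest of the section at E13.5 and at −0.33 at E16.5, and those of neural progenitors at 0.01 and −0.65. The difference between stages was not tested, with 1 section each. Against an E16.5 rest without Ucp1-positive spots the values were 0.17 for neurons and −0.14 for neural progenitors.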

How the results depend on the processing

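For P0 striated-leaning against epithelium, 62 members were higher; regions from each muscle list alone (top 15%) gave 41, and library size alone, added after seeing the data, moved the median to 0.92. For smooth-leaning against epithelium, library size alone gave 63 higher, 1 lower and a median of 0.71; DESeq2 and the top 15% of spots also left 1 lower, and the median was 0.42 with at least 2000 UMIs per spot and 0.52 with the top 15%. Between the muscle regions, 7 higher became 3 with DESeq2, 13 without a filter on low counts, 4 with each list alone and 3 without the replicate block. The block is the section, which regions of 1 slide share; without it the other contrasts gave 60 higher and 34 higher. Leaving out a P0 section leaves no replicate and so no test; the median log2 ratio of CPM then ranged from 0.80 to 1.04, 0.67 to 0.73 and 0.02 to 0.31 in the 3 contrasts.

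By section, a limit of 1 log2 gave 25 members higher at E16.5 than E13.5, against 1993 of 18900 genes. The same limit gave 1 member lower at P0 than E13.5, against 3978 of 17763 genes. At the limit of the main comparison, 19 members were higher at E16.5 without Ucp1-positive spots (21.4% of all genes). TMM at that main limit gave 10 members lower at P0 than E13.5 (33.9% of all genes). Member levels at E13.5, E16.5 and P0 were 3.26%, 6.41% and 2.91% with TMM, 3.68%, 6.75% and 2.93% without mitochondrial genes, 3.70% and 6.80% in the embryos without blood genes, and 4.52% at E16.5 without Ucp1-positive spots. Log2 to the rest for E13.5 heart, E16.5 heart and brown fat was 0.88, 0.28 and 1.46 without mitochondrial genes, 0.94, 0.41 and 1.40 without blood genes, 0.88, 0.07 and 1.41 with the top 1% of spots, 0.78, 0.25 and 1.51 with the top 4%, and 0.72 (heart) and 1.96 (brown fat) at E16.5 against a rest without Ucp1. Cox7a1 shares with the top 1% were 15.7% in E16.5 striated muscle and 43.6% in brown fat. Signs turned where the difference was near 0 or the rest changed: without blood genes, E13.5 liver 0.08, E13.5 neural progenitors −0.02 and E16.5 striated muscle −0.02; E13.5 neural progenitors −0.01 with the top 1%; E13.5 striated muscle −0.04 with the top 4%; E16.5 neurons 0.17 against a rest without Ucp1. The cause was not tested beyond these changes. Of the values that answer a comparison, 96 stayed within a fixed margin of the main value. Outside it, 29 levels, medians or shares moved, 11 counts were weaker and 2 were stronger. The margin was a ratio for counts, and the SD or counting interval for levels, medians and shares. Single calls could be lost within it: smooth-leaning against epithelium had 36 members higher, 25 with the DESeq2 test and 24 with each muscle list alone. Depth limits Cox4i2, Cox6a2, Cox7a1 and Cox8b at P0, with counts under 20 UMIs in some regions.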
